A study of Mus musculus with 8 samples.

Results

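The 28 genes described here encode 18 enzymes of cholesterol synthesis, 5 proteins that regulate that synthesis through sterol regulatory element-binding proteins (SREBPs) and 5 proteins that move or store sterols. They were chosen by gene symbol from the 31010 genes of the table, and each symbol was found once. Of the 28, 26 had a mean of at least 1 FPKM (fragments per kilobase of gene, scaled to library size) over all samples and were tested among 12000 genes. Tm7sf2 and Ebp lay below that level and were not tested.

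The samples were 8 lines of germline stem (GS) cells, the form in which mouse spermatogonial stem cells grow in culture. Of these, 4 came from control-F1 mice born after natural mating and 4 from ICSI-F1 mice, conceived by intracytoplasmic sperm injection. The labels give every line as wild type and as B6 (C57BL/6). The study's methods took sperm for the injection from mice with an Egfp transgene expressed in all tissues, and whether the ICSI lines carry it is not stated in the sources used here. The lines were started from CD9+ cells sorted from mature testes. All lines were kept in 1 medium with FGF2, GDNF, estradiol and progesterone, and that medium supplied cholesterol and a lipid concentrate. The embryonic fibroblasts on which GS cells grow were reduced by a short plating step on gelatin before RNA was collected. The labels do not say that each line came from a different mouse. The study's supplement uses the same numbers for F1 offspring in its methylation panels, but does not state that the lines were numbered by mouse. Here n counts lines, and p-values measure the spread between lines.

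The sample titles came in 2 spellings (words joined by hyphens or by low lines), here called label forms. Both groups had 2 lines in either form. Label form 1 covered control lines 29 and 37 and ICSI lines 11 and 17. Label form 2 covered control lines 44 and 45 and ICSI lines 20 and 21. The submitters' processing notes gave different program versions for the forms. STAR was version 2.7.9a in form 1 and 2.6.0c in form 2, and HTSeq was 0.13.5 and 0.11.2. Reads recovered from the FPKM values numbered 24712380 to 26667417 per library in form 1 and 32360921 to 44284526 in form 2, so the form 2 libraries were deeper. The study's methods, however, name STAR 2.7.9a and HTSeq 0.13.5 for all libraries, so it is uncertain whether the versions behind the values differed. Depth and the versions in the notes move with the form and cannot be told apart from it.

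Cells make cholesterol from acetyl-CoA. The mevalonate pathway builds isoprenoid units and farnesyl diphosphate, squalene is formed from these and closed into lanosterol, and a series of reductions and demethylations turns lanosterol into cholesterol. When membrane sterol is low, the escort protein Scap carries SREBPs from the endoplasmic reticulum to the Golgi, where they are cleaved into transcription factors that switch on these same enzymes. When sterol is high, Insig1 and Insig2 hold Scap in the endoplasmic reticulum. SREBP2, from Srebf2, acts mainly on cholesterol genes and SREBP1, from Srebf1, mainly on fatty acid genes. In the testis, cholesterol is a membrane lipid of germ cells and the raw material of Leydig cell steroids.

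SREBPs bind sterol regulatory elements, short sites with variable letters such as TCACNCCAC, usually beside sites for NF-Y (CCAAT) and Sp1 (GGGCGG). RefSeq promoter windows of the GRCm38.p6 build, 250 bases before and 50 bases after the start of the gene, were found for 23 of the 28 genes, in 31 windows. The 4 below belong to genes with large differences between the lines. Hmgcs1, Cyp51 and Msmo1 encode enzymes, and Insig1 encodes the sterol-dependent brake. Capitals mark TCACNCCA, the NF-Y letters CCAAT, the Sp1 letters GGGCGG and the E-box CACGTG on either strand, so that ATTGG stands for the NF-Y letters read on the other strand.
Hmgcs1, chr13:119690101-119690400, plus strand: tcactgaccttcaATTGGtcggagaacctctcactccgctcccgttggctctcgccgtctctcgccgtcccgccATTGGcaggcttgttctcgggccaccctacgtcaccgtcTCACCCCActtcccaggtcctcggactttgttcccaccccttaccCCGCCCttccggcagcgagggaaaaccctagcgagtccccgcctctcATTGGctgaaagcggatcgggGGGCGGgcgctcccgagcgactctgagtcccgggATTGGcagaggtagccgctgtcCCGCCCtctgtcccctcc
Cyp51, chr5:4104648-4104947, minus strand: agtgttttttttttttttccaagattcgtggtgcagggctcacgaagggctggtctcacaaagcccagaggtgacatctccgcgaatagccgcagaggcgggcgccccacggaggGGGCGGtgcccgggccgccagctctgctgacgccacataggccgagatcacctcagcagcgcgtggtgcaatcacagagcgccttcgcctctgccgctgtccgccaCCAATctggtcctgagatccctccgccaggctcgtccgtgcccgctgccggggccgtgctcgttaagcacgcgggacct
Msmo1, chr8:64733529-64733828, minus strand: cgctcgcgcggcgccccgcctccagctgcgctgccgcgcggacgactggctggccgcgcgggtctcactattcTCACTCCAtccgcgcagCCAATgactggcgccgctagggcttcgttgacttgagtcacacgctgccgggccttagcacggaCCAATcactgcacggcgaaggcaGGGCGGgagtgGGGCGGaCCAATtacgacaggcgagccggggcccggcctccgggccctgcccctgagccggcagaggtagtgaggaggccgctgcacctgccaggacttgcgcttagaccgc
Insig1, chr5:28071162-28071461, plus strand: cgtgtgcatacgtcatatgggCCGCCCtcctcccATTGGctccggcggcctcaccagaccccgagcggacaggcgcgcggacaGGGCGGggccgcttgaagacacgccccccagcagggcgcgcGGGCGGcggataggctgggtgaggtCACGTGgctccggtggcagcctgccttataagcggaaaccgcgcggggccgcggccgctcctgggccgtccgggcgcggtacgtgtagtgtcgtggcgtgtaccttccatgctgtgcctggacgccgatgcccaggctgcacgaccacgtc

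The Hmgcs1 window held TCACNCCA 137 bases before the start, with CCAAT at 176 and 45 bases before it. The Msmo1 window held TCACNCCA 177 bases before the start, followed by CCAAT at 160 bases. Neither the Cyp51 nor the Insig1 window held TCACNCCA. Insig1 instead held CACGTG, an E-box that SREBPs can also bind, 101 bases before the start. A letter match is a description of these windows and not a site of binding. Nor does its absence show that an SREBP element is lacking, since the letters of the elements vary.

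Across the family, CCAAT was in 21 of 31 windows (67.7%), compared with 37.4% of the 32851 promoters of all genes and 38.4% of the promoters of tested genes. GGGCGG was in 26 windows (83.9%), compared with 35.7% of all promoters and 63.9% of those of tested genes. CACGTG was in 7 windows (22.6%), compared with 7.15% and 10.5%. The SREBP letters TCACNCCAC were in 1 window (3.23%), that of Hmgcs1, compared with 1.24% of all promoters. The shorter TCACNCCA, which is part of it, was in the windows of Hmgcs1, Msmo1 and Srebf2 (9.68%, compared with 4.36%). Other SREBP letters were as sparse: CACCCCAC was in 6.45% of the windows against 2.87% of all promoters, ATCACNCCA in 3.23% against 0.868%, and TCACNCNAC in 6.45% against 2.7%. CANNTG, the general E-box that contains CACGTG, was in 83.9% against 72.3%. Both strands were searched for each of the 9 motifs, and windows of 1 gene overlap one another.

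The level of the 28 genes was examined first. FPKM values are per gene length, so genes can be compared. The highest was Insig1 at a mean of 105.9 FPKM over the 8 lines, which ranked 270 among the 12000 genes tested. Srebf2 followed at 80.1 FPKM and Hmgcs1, which makes HMG-CoA, at 71.8 FPKM. Cyp51 (38.1), Fdps (36.8), Fdft1 (31.0), Sqle (30.7), Npc2 (30.3) and Dhcr7 (29.4) came next, in mean FPKM. The median of the 26 tested members was 22.9 FPKM, compared with 8.59 FPKM for all genes tested. The lowest tested enzymes were Mvk at 6.89, Idi1 at 5.54 and Pmvk at 5.28 FPKM, all of the mevalonate pathway.

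**Figure D1:**
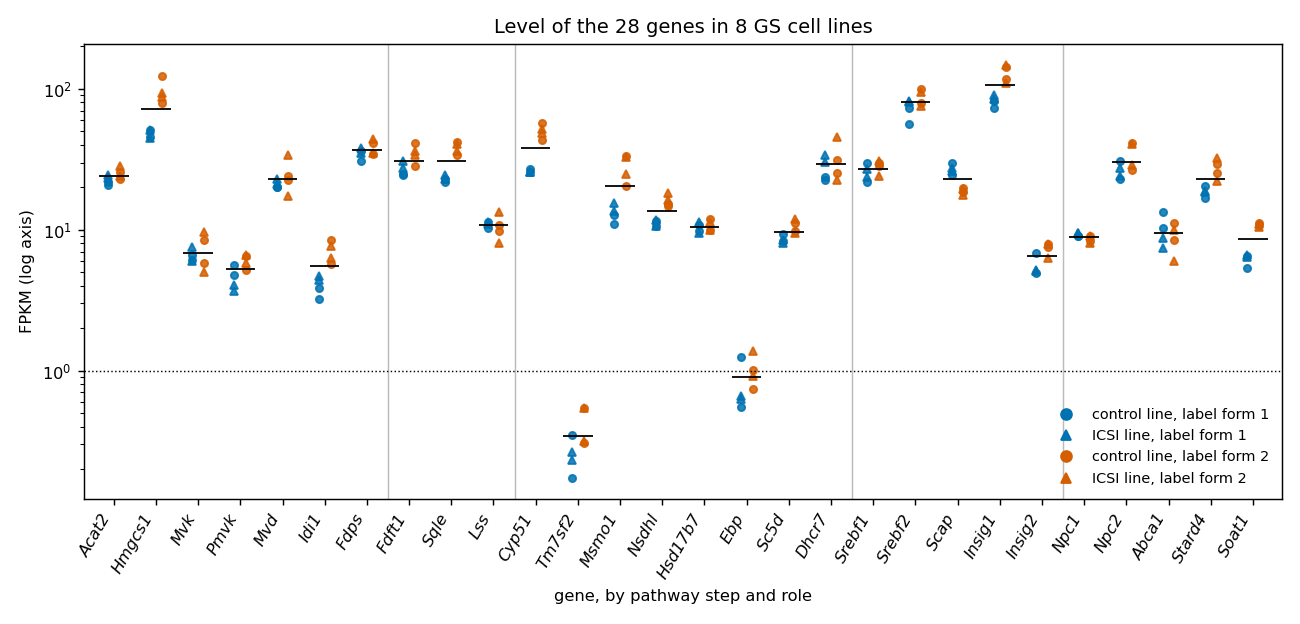
FPKM on a log axis for each of the 28 genes in pathway order, with 1 point per line, circles for control and triangles for ICSI, blue for label form 1 and orange for label form 2; black bars are means over 8 lines and the dotted line is the limit of 1 FPKM. Insig1, Srebf2 and Hmgcs1 are highest, and Tm7sf2 and Ebp are the 2 genes with means under 1 FPKM.

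The 2 untested genes both act between lanosterol and cholesterol. Tm7sf2, a sterol C14-reductase, had 0.352, 0.173, 0.541 and 0.309 FPKM in control lines 29, 37, 44 and 45. It had 0.233, 0.266, 0.543 and 0.316 FPKM in ICSI lines 11, 17, 20 and 21. These values rest on 19 to 78 reads a line, from a gene that overlaps Vps51 (8.67 FPKM) on the same strand, and they overlap between the groups and between the forms. Lbr, a nuclear membrane protein that has the same reductase activity, was at a mean of 68.8 FPKM. Ebp, the sterol isomerase, averaged 0.894 FPKM and ranged from 0.555 FPKM in control line 37 to 1.37 FPKM in ICSI line 20, on 32 to 98 reads.

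ICSI and control lines were then compared, the question of the study. None of the 26 sterol genes differed between the groups at an adjusted p under 0.05 by limma, and none did by limma-voom on the recovered reads. Of all 12000 genes 0% were called. At an unadjusted p under 0.05 there was 1 member, Abca1, where the share of all genes was 0.458%. Log2 differences, ICSI minus control, ran from -0.39 to 0.32, with 15 genes higher and 11 lower and a median of 0.04, and the median of all genes was -0.01. No member had groups that did not overlap. Over all genes, 0.208% had all ICSI lines above the control lines and 0.233% had them all below.

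Abca1, which exports cholesterol to lipoproteins, had the largest difference. It was at 13.3, 10.3, 11.2 and 8.47 FPKM in control lines 29, 37, 44 and 45 and at 8.78, 7.41, 9.93 and 6.03 FPKM in ICSI lines 11, 17, 20 and 21. The log2 difference was -0.39, with a 95% interval of -0.78 to -0.01 and an adjusted p of 1.0 by limma. The exact two-sided permutation test gave p = 0.0857, and 4 lines against 4 cannot go below 0.0286. Control line 29, the highest for Abca1, also had the highest summed level of 15 fibroblast markers, 886.6 FPKM, in a range over lines that began at 195.8 FPKM. The part of fibroblasts in the Abca1 values was not tested.

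Dhcr7, which makes the last step to cholesterol, was at 22.5, 23.9, 31.3 and 25.2 FPKM in the control lines in the same order. It was at 30.0, 33.9, 22.4 and 45.6 FPKM in the ICSI lines. ICSI line 21 was the highest of all 8 lines and ICSI line 20 the lowest. The control mean was 25.7 ± 3.87 FPKM and the ICSI mean 33.0 ± 9.70 FPKM (SD, n = 4), with a log2 difference of 0.32 and a 95% interval of -0.13 to 0.76. The difference was 0.45 within form 1 and 0.19 within form 2. It was 0.15 without ICSI line 21 and 0.48 without ICSI line 20.

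Msmo1 and Idi1 had the next largest differences between the groups, 0.20 and 0.14. Their lines lay apart by label form, while the groups overlapped. For Msmo1 the 95% interval was -0.62 to 1.02. With the label form as a second term of the fit it narrowed to -0.16 to 0.56. The change was larger still for Cyp51, whose standard error of the ICSI difference was 0.32 with the group alone and 0.09 with both terms. With both terms, no member was called. The intervals of all 26 members then lay between -0.77 (Abca1) and 0.76 (Dhcr7).

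The label forms were compared with the group as a covariate. Of the 26 genes, 9 were higher in form 2 and 1 was lower at an adjusted p under 0.05. Those 9 are 34.6% of the members tested, and over all genes 10.2% were higher and 5.76% lower. The members and the lists below were chosen with earlier results of these data known, so such shares are a description. All tested members averaged at least 5.28 FPKM. With a filter of 5 FPKM, again 9 members were higher and 1 lower. The share of all genes called in either direction was then 19.6%, compared with 16% in the main fit. Of those calls 72.6% were higher in form 2 (1118 of 1540), compared with 64% in the main fit. The 10.2% set beside smaller lists below is that of the main filter, which also holds genes lower than any tested member. Among the members that were not called, 13 had a higher mean in form 2 and 3 a lower one. The median log2 difference was 0.32 for the members and 0.03 for all genes. The forms did not overlap for 10 members with form 2 above and for Scap with form 2 below, where the shares of all genes were 16% and 10.8%. In RNA of a whole culture, a larger share of cells that express a gene cannot be told apart from more RNA per cell.

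In the mevalonate pathway, 2 of 7 genes rose in form 2 (10.2% of all genes did), and the other 5 had log2 differences of 0.08 to 0.35. Hmgcs1, the HMG-CoA synthase, was at 50.8 and 45.2 FPKM in control lines 29 and 37 and at 50.7 and 44.4 FPKM in ICSI lines 11 and 17. It was at 123.2 and 79.3 FPKM in control lines 44 and 45 and at 86.9 and 94.0 FPKM in ICSI lines 20 and 21. Every form 2 line lay above every form 1 line. The mean was 47.8 ± 3.43 FPKM in form 1 and 95.8 ± 19.2 FPKM in form 2 (SD, n = 4), a ratio of 2.00, with a log2 difference of 0.97 ± 0.14 (SE, adjusted p = 0.00888).

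Idi1, the isopentenyl diphosphate isomerase, was at 3.21, 3.84, 4.67 and 4.37 FPKM in lines 29, 37, 11 and 17 and at 8.52, 5.75, 6.25 and 7.73 FPKM in lines 44, 45, 20 and 21. The forms did not overlap, and control line 44 was highest, as it was for Hmgcs1. The log2 difference was 0.68 ± 0.14 (SE, adjusted p = 0.0211). Mvk and Mvd, the first kinase and the decarboxylase that act after mevalonate, differed by 0.08 and 0.17, which did not pass the test. Both were lowest in ICSI line 20 and highest in ICSI line 21. Fdps, the farnesyl diphosphate synthase, was at 34.9 ± 3.07 FPKM in form 1 and 38.7 ± 4.69 FPKM in form 2, and Acat2, the thiolase, at 22.7 ± 1.56 and 25.3 ± 2.42 FPKM.

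Of the 3 genes that form squalene and lanosterol, 1 rose in form 2 (10.2% of all genes did). Groups this small cannot set 1 step apart from another. Sqle, the squalene epoxidase, was at 23.0, 21.7, 22.8 and 24.6 FPKM in lines 29, 37, 11 and 17 and at 42.2, 34.1, 36.2 and 40.8 FPKM in lines 44, 45, 20 and 21. The 4 form 1 lines lay within 3 FPKM of one another, and the form 2 lines were well above them. The log2 difference was 0.71 ± 0.09 (SE, adjusted p = 0.00819). Fdft1, the squalene synthase, differed by 0.36 with overlapping forms (adjusted p = 0.0728). Lss, the lanosterol synthase that acts on the product of Sqle, was at 11.0 ± 0.53 FPKM in form 1 and 10.5 ± 2.25 FPKM in form 2, with a log2 difference of -0.08 ± 0.14. Sqle and Lss are consecutive in the pathway, and the intervals of their differences were 0.50 to 0.92 and -0.40 to 0.24.

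Among the 6 tested genes from lanosterol to cholesterol, 3 rose in form 2 (10.2% of all genes did). Cyp51, the lanosterol demethylase, was at 26.9, 25.8, 25.8 and 25.6 FPKM in lines 29, 37, 11 and 17 and at 56.8, 43.5, 51.8 and 48.8 FPKM in lines 44, 45, 20 and 21. The form 1 lines were nearly equal, with a mean of 26.0 ± 0.63 FPKM, while form 2 averaged 50.2 ± 5.57 FPKM (SD, n = 4). The log2 difference was 0.92 ± 0.09 (SE, adjusted p = 0.00754), the smallest adjusted p of the members.

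Msmo1, the methylsterol monooxygenase that removes methyl groups after Cyp51, was at 12.7, 10.9, 13.6 and 15.4 FPKM in lines 29, 37, 11 and 17. It was at 33.1, 20.5, 24.8 and 32.7 FPKM in lines 44, 45, 20 and 21, again all above form 1. The log2 difference of 1.01 ± 0.16 (SE, adjusted p = 0.0109) was the largest of the 26 members. Nsdhl, the dehydrogenase of the same demethylation steps, was at 11.6, 10.6, 10.6 and 11.8 FPKM in the form 1 lines and at 15.3, 14.7, 18.3 and 16.2 FPKM in the form 2 lines, in that order. The forms lay apart, and the log2 difference was 0.49 ± 0.09 (SE, adjusted p = 0.0150).

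The other tested enzymes between lanosterol and cholesterol did not pass the test. Sc5d, the desaturase, had forms that did not overlap, 8.55 ± 0.59 FPKM against 10.6 ± 1.17 FPKM, and a log2 difference of 0.28 (adjusted p = 0.0914). Hsd17b7, a sterol ketone reductase, differed by 0.05 and Dhcr7 by 0.13, with forms that overlapped.

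**Figure D2:**
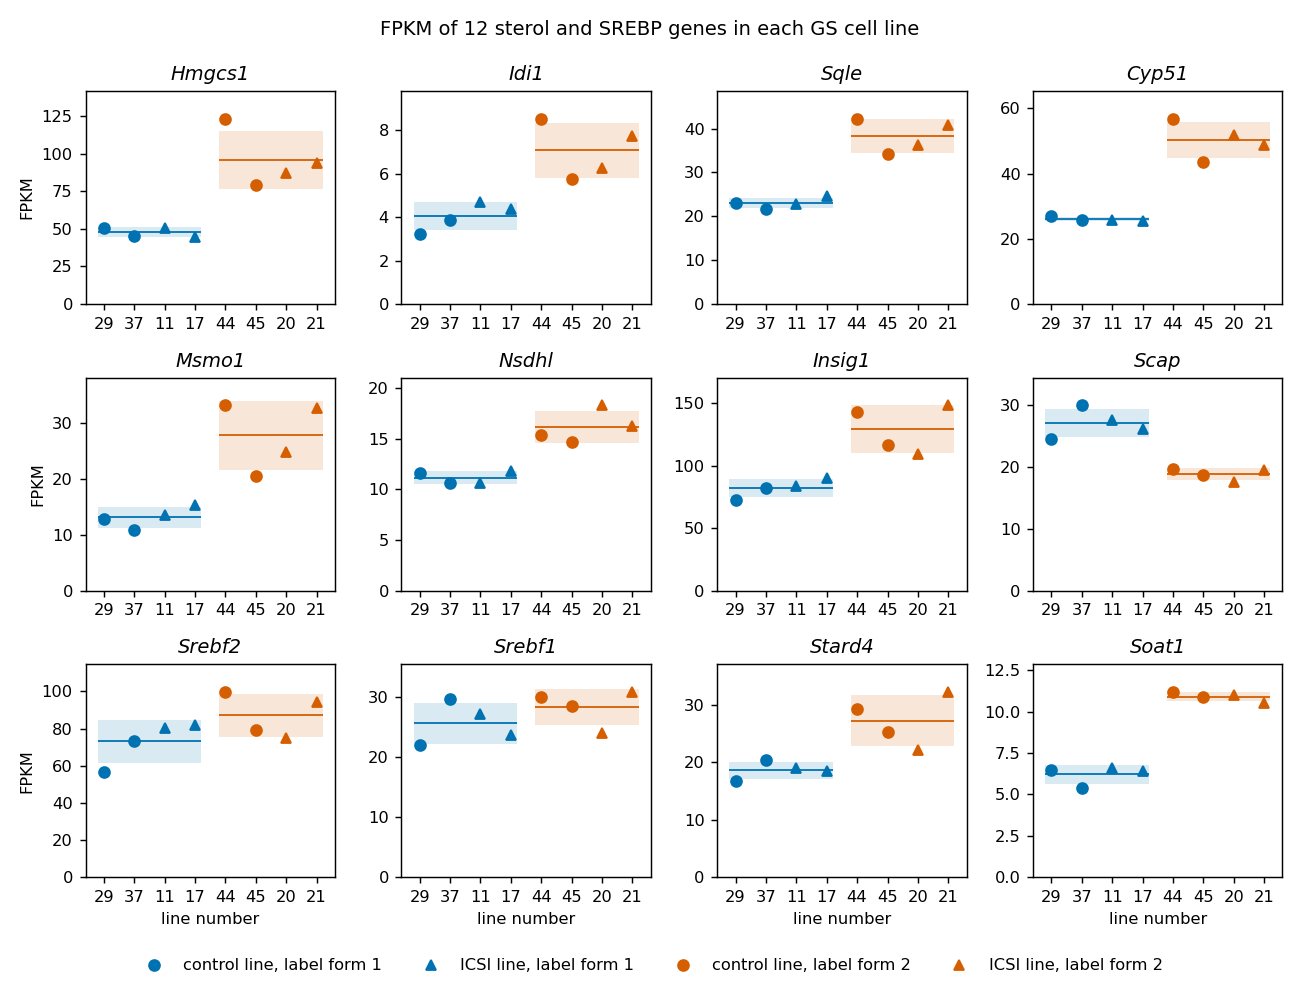
FPKM of 12 genes in each GS cell line, with the line number on the x axis, circles for control and triangles for ICSI lines, blue for label form 1 and orange for label form 2; horizontal lines are form means and shaded bands are ± 1 SD (n = 4). The forms lie apart in 10 panels, with Scap the one gene lower in form 2, and they overlap for Srebf2 and Srebf1.

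The 5 regulators did not move together. Insig1, itself a target of SREBPs, was at 73.0, 82.0, 84.1 and 89.9 FPKM in lines 29, 37, 11 and 17 and at 142.8, 117.0, 109.8 and 148.5 FPKM in lines 44, 45, 20 and 21. All form 2 lines were above form 1, with a log2 difference of 0.64 ± 0.12 (SE, adjusted p = 0.0164). Insig2 was at 6.87, 4.95, 5.08 and 5.21 FPKM in the form 1 lines and at 7.95, 7.58, 7.88 and 6.29 FPKM in the form 2 lines. Control line 29 lay among the form 2 lines, and the difference of 0.37 did not pass the test (adjusted p = 0.0626).

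Scap went the other way. It was at 24.5, 29.9, 27.6 and 26.2 FPKM in lines 29, 37, 11 and 17 and at 19.6, 18.6, 17.6 and 19.5 FPKM in lines 44, 45, 20 and 21. Every form 2 line was below every form 1 line. The mean fell from 27.0 ± 2.29 to 18.8 ± 0.98 FPKM (SD, n = 4), and the log2 difference was -0.50 ± 0.09 (SE, adjusted p = 0.0145).

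The SREBP genes themselves did not pass the test. Srebf2 was at 56.6, 73.2, 80.6 and 82.1 FPKM in lines 29, 37, 11 and 17 and at 99.7, 79.3, 75.1 and 94.3 FPKM in lines 44, 45, 20 and 21. Control line 29 was the lowest, and the forms overlapped. The log2 difference was 0.25 ± 0.14 (SE, adjusted p = 0.228). Srebf1 was at 22.0, 29.6, 27.1 and 23.6 FPKM in the form 1 lines and at 29.9, 28.5, 24.0 and 30.8 FPKM in the form 2 lines. The forms overlapped, with a log2 difference of 0.14 ± 0.12 (SE, adjusted p = 0.421). These are levels of messenger RNA, and the cleaved SREBP proteins were not measured.

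Of the 5 genes of sterol movement and storage, 2 rose in form 2 (10.2% of all genes did). Soat1, the enzyme that esterifies cholesterol for storage, was at 6.49, 5.37, 6.62 and 6.43 FPKM in lines 29, 37, 11 and 17 and at 11.2, 10.9, 11.0 and 10.5 FPKM in lines 44, 45, 20 and 21. The form 2 lines were within 1 FPKM of one another. The log2 difference was 0.72 ± 0.09 (SE, adjusted p = 0.00792). Stard4, a cytosolic sterol carrier, was at 16.8, 20.3, 19.0 and 18.5 FPKM in the form 1 lines and at 29.3, 25.2, 22.1 and 32.2 FPKM in the form 2 lines, with a log2 difference of 0.51 ± 0.13 (SE, adjusted p = 0.0316). The lysosomal cholesterol proteins were not called. Npc2 differed by 0.36, with values from 22.8 FPKM in control line 37 to 41.5 FPKM in control line 44, and Npc1 by -0.10, with values from 8.04 FPKM in ICSI line 21 to 9.55 FPKM in ICSI line 17.

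The number of calls depended on single libraries more than the differences did. Without control line 37, and also without ICSI line 11, 5 members were called higher in form 2 and none lower, and the share of all genes called in either direction fell from 16% to 2.39% and 1.75%. The 5 calls that were lost kept their direction and nearly their size. Without those lines in turn the log2 difference was 0.69 and 0.72 for Idi1, 0.66 and 0.64 for Insig1, 0.56 and 0.52 for Stard4, 0.49 and 0.45 for Nsdhl, and -0.44 and -0.48 for Scap. Hmgcs1, Cyp51, Msmo1, Sqle and Soat1 were called under all 16 settings tried, Stard4 under 7 of them and Idi1 under 12. Quantile normalization left out Insig1 and Stard4, and moved the share of called genes over the whole table that were higher in form 2 from 64% to 51.2%.

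**Figure D3:**
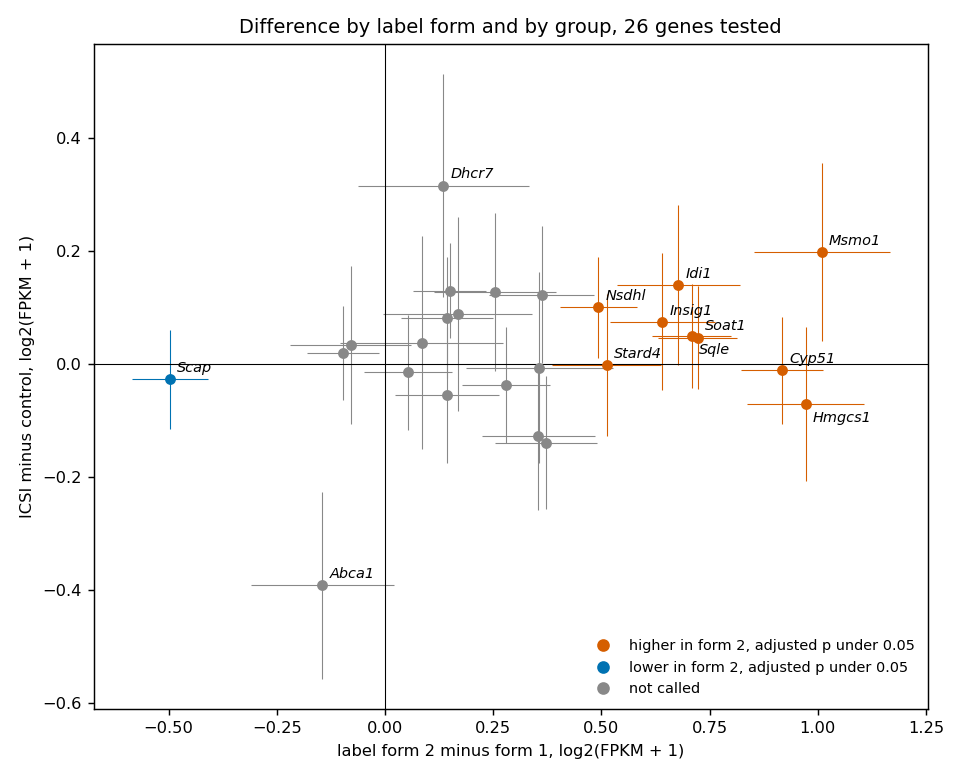
Log2 difference between label forms (x axis) and between ICSI and control lines (y axis) for the 26 genes tested, in log2(FPKM + 1), with bars of ± 1 SE from the fit with both terms; orange and blue points are higher and lower in form 2 at an adjusted p under 0.05. The spread along the x axis runs from -0.50 (Scap) to 1.01 (Msmo1), and along the y axis from -0.39 (Abca1) to 0.32 (Dhcr7).

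Whether the ICSI difference itself depended on the label form was tested with an interaction term. It was not called for any of the 26 members by limma or limma-voom, nor for any other gene (0%). At an unadjusted p under 0.05 there was no member, where the share of all genes was 1.23%. The smallest p of the members was that of Pmvk, the phosphomevalonate kinase, whose ICSI difference was -0.35 in form 1 and 0.09 in form 2 (unadjusted p = 0.103, limma). For Srebf2 it was 0.33 in form 1 and -0.08 in form 2. The 10 called members had form differences of the same sign in control and in ICSI lines. For Hmgcs1 these were 1.03 in control and 0.92 in ICSI lines, for Cyp51 0.89 and 0.94, and for Scap -0.48 and -0.51.

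Within the forms, single lines stood out. Control line 44 and ICSI line 21 were each the highest line for 11 of the 26 tested members. Control line 37 was the lowest for 8 and control line 29 for 6. The same counts were not made over all genes, so these counts do not set the sterol genes apart. The 2 control lines of form 2 differed, with 25 of 26 members higher in line 44 than in line 45 (46.7% of all genes were). The median log2 difference was 0.26, compared with -0.03 for all genes, and the largest was 0.67 for Msmo1. Between the ICSI lines of form 2, 19 of 26 were higher in line 21 than in line 20 (46.6% of all genes were). The median was 0.21, where that of all genes was -0.03. Dhcr7 had the largest of these differences, 1.00. Each of these pairs compares 2 libraries and has no replicate check.

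The lines of form 1 were more alike. ICSI line 17 was above line 11 for 14 of 26 members (42.9% of all genes) with a median of 0.02. Control line 37 was above line 29 for 11 (57% of all genes) with a median of -0.01. Mvk, Mvd, Lss and Dhcr7 shared a pattern that Hmgcs1, Cyp51 and Soat1 did not have, for they were lowest in ICSI line 20 and highest in ICSI line 21. Lss, for example, was at 8.08 FPKM in line 20 and 13.5 FPKM in line 21, with the other 6 lines between 9.82 and 11.4 FPKM.

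**Figure D4:**
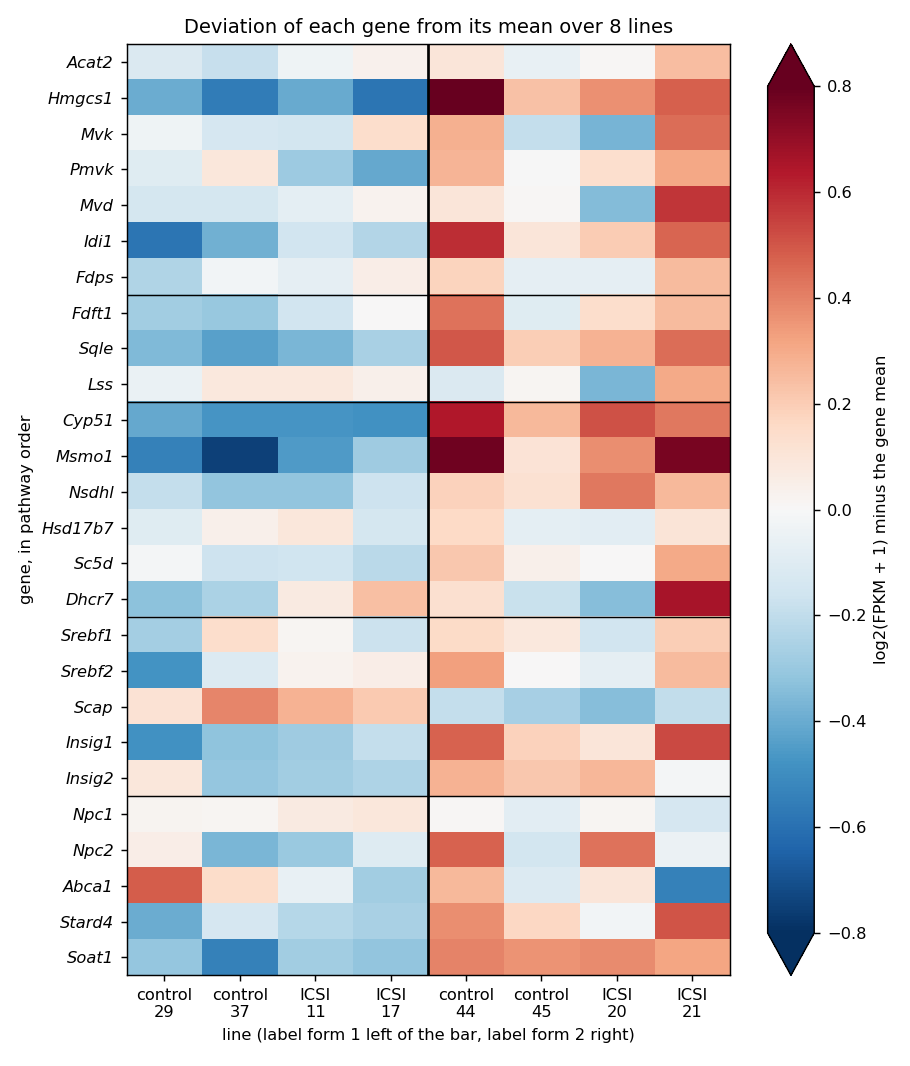
Deviation of log2(FPKM + 1) from the mean of each gene over the 8 lines, for the 26 genes tested in pathway order (rows) and for each line (columns), with label form 1 left of the black bar and form 2 right of it. Hmgcs1, Sqle, Cyp51, Msmo1, Insig1 and Soat1 are below their mean in all 4 form 1 lines and above it in all 4 form 2 lines, and Scap is reversed.

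Likeness across the lines is given as a description, since each value rests on 8 lines that share 2 label forms and a depth difference. The 325 pairs of tested members had a median Pearson's r of 0.50, and 50.2% of the pairs were above 0.5, compared with a median of 0.01 and 21% for pairs of all genes tested. With group and label form removed the median was 0.40, compared with 0.01 for all pairs. The closest pair for Msmo1 was Sqle (r = 0.98), for Hmgcs1 Cyp51 (r = 0.98), for Idi1 Insig1 (r = 0.97) and for Dhcr7 Mvd (r = 0.91). Scap had a negative r with 22 of the other 25 members and Npc1 with 23. Outside the enzymes, the genes closest to the mean standardised profile of the enzymes from Hmgcs1 to Dhcr7 included Pcdh12, a protocadherin (r = 0.97), the members Insig1 (r = 0.96) and Stard4 (r = 0.96), and Ttc9c (r = 0.95).

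Other genes of sterol and fatty acid regulation were counted in the same fits. Of 63 genes on 5 lists, 53 were tested. None was called between ICSI and control lines by limma or limma-voom, and none had an unadjusted p under 0.05. Between the forms, 6 rose (11.3%) and 1 fell, and their median difference was 0.09. The share that rose is close to the 10.2% of all genes. Without control line 37 or without ICSI line 11 none of them was called, where 2.39% and 1.75% of all genes were. Quantile normalization called 3 higher and 3 lower.

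The 12 tested SREBP1 targets of fatty acid synthesis held 4 of these calls (33.3%, where 10.2% of all genes rose). Scd1, a stearoyl-CoA desaturase, was at 4.05, 3.83, 3.74 and 4.79 FPKM in lines 29, 37, 11 and 17 and at 11.2, 6.34, 7.82 and 9.65 FPKM in lines 44, 45, 20 and 21, with a log2 difference of 0.91 (adjusted p = 0.0148). The forms lay apart, and line 44 was again the highest. Scd2 rose by 0.71, Fads1, a fatty acid desaturase, by 0.48 and Me1, the malic enzyme, by 0.35. Of the other 8 targets, 3 had a positive difference and 5 a negative one, and none was called. They ran from -0.39 for Fasn, the fatty acid synthase, to 0.61 for Elovl6 (adjusted p = 0.0971 and 0.0514, limma). Acaca, the acetyl-CoA carboxylase, was at -0.24.

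On the list of other sterol synthesis genes, Lbr was the 1 of 5 that rose, by 0.44, and 1 call among 5 genes says little beside the 10.2% of all genes. The 12 genes of SREBP processing and sterol-regulated degradation, which include the proteases that cleave SREBPs, held no call, with a median of 0.00 and a range of -0.29 to 0.27. The 9 genes of LXR and oxysterol signalling, which promotes cholesterol export, held none and had a median of -0.14. Among 15 genes of sterol uptake, transport and storage, the lysosomal membrane protein Lamp1 rose by 0.43 and the receptor Lrp1 fell by 0.68, and the other 13 were not called. Over all genes 10.2% rose and 5.76% fell, so these 2 calls do not set the list apart.

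**Figure D5:**
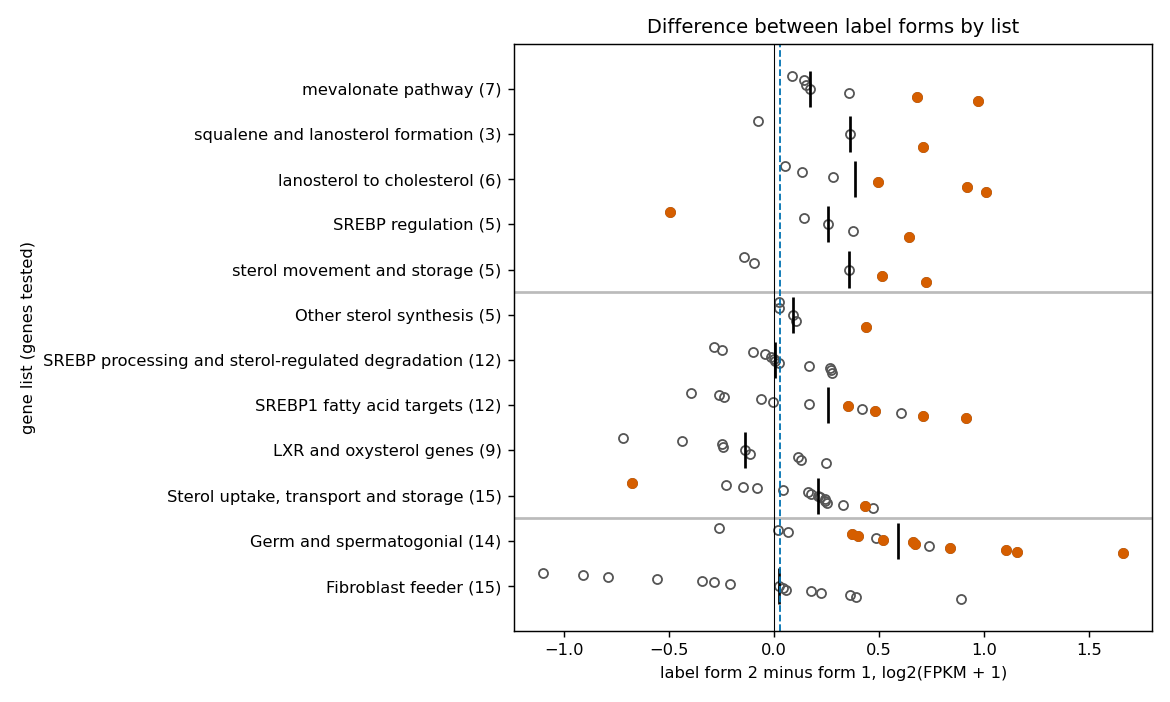
Log2 difference between label form 2 and form 1 in log2(FPKM + 1), 1 point per tested gene, for the 5 groups of sterol genes (top), 5 lists of related genes (middle) and 2 lists of cell type markers (bottom); filled points have an adjusted p under 0.05, black bars are list medians and the dashed line is the median of all genes, 0.03. The medians of the top 5 groups lie between 0.17 and 0.39, and that of the spermatogonial markers is 0.59.

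Markers of the cells that such a culture can hold were read beside the sterol genes. Of 14 germ cell and spermatogonial markers, 9 rose in form 2 (64.3%, where 10.2% of all genes rose) and none fell, and their summed level was 866.7 to 1051 FPKM in form 1 and 1270 to 1598 FPKM in form 2. Lhx1, which responds to GDNF, and Dazl, a germ cell RNA-binding protein, were among them, with log2 differences of 1.66 and 0.52. None of 15 fibroblast markers was called, and their sums of 256.9 to 886.6 FPKM in form 1 and 195.8 to 757.7 FPKM in form 2 overlapped. Of 7 markers of differentiation and meiosis, 5 were tested, and their median difference was -0.41. Sycp3 rose by 0.64 and Kit fell by 0.80, where 10.2% of all genes rose and 5.76% fell. The 3 that were not called were all lower in form 2, and Prm1 was listed at 0 in every line.

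Most defining markers of testicular somatic cells were near 0, and a few were not. The Leydig cell genes Cyp11a1 and Hsd3b1 averaged 0.0428 and 0.0893 FPKM, Cyp17a1 was listed at 0, Star was highest at 1.24 FPKM, and the sum of 6 Leydig markers was 0.676 to 1.90 FPKM. The Sertoli cell gene Amh averaged 0.0359 FPKM, and the sum of 6 markers was 4.02 to 7.52 FPKM, although Sox9 rose by 1.03 and Wt1 fell by 0.82. Of 5 macrophage markers, Ptprc, Adgre1 and Csf1r averaged 0.0891, 0.242 and 0.0844 FPKM. Lyz2 averaged 19.0 FPKM and fell by 1.92 in form 2, and Cd68 averaged 7.76 FPKM and had a log2 difference of 0.36 (adjusted p = 0.439). The macrophage sum was 27.9 to 49.7 FPKM in form 1 and 12.0 to 20.7 FPKM in form 2. The part of the cell make-up in the differences of the sterol genes was not tested.

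Reads of overlapping genes set a further limit, because the kit in the labels is not the one in the methods, so it is uncertain whether strand was kept. In the annotation, 11 of the 28 genes overlap a gene on the opposite strand and 4 a gene on the same strand. Among the called members, the opposite strand was shared by Cyp51, beside Akap9 (6.35 FPKM), Hmgcs1, beside an antisense gene at 0.0280 FPKM, and Idi1, Scap and Soat1, whose partners were not analysed here. Among members not called, Fdft1 (31.0 FPKM) lay beside Ctsb (52.3 FPKM), Npc1 beside Rmc1 (12.5 FPKM) and Srebf1 beside Rai1 (10.4 FPKM). The part of such reads in the values was not tested.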

How the data were processed

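RNA-seq was analysed in 8 GS cell lines, 4 control and 4 ICSI. According to the study's methods, the authors sequenced single reads of 76 bases, trimmed them with cutadapt, mapped them to mm10 with STAR and counted them on GENCODE genes with htseq-count. The deposited values are FPKM per gene. The study's methods speak of TPM, but the columns are named and behave as FPKM. The log2 fold changes and adjusted p-values that the authors made with DESeq2 and deposited beside them were not used. Low FPKM values are whole multiples of 1 read, and whole reads (within 0.01) were recovered for 99.91% of genes above 0. Per kilobase, 1 read stood for 0.0227 to 0.0401 FPKM, depending on the line. The tested members had 177 to 25141 reads per line.

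limma 3.58.1 in R 4.3.3 (lmFit, eBayes with a trend) was run on log2(FPKM + 1) for the 12000 genes averaging 1 FPKM or more, two-sided, with Benjamini-Hochberg adjustment over all of them and a threshold of 0.05. A pseudocount of 1 understates changes of low genes. The ICSI comparison had the group as its term, and the label form comparison had the group as covariate. Single members were also compared by an exact permutation test over 70 assignments. Alternatives were a pseudocount of 0.1, no filter, a filter of 5 FPKM, TPM rescaling, quantile normalization, limma-voom on recovered reads, the label form or no group term, and leaving out each line. Per-line values were given for members called between the forms, the 4 with the largest ICSI difference, the 5 regulators, and the highest and lowest member. Related genes were named when called. The members and lists were chosen with earlier results of these data known. Positions and strands came from GENCODE M21 (GRCm38, the assembly of mm10), and promoters from RefSeq (GRCm38.p6). Withheld items are not reported here.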

Additional observations from a re-analysis of the deposited data

Results flagged for a closer look

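Among 52 sets of 4 lines (26 members in each group), Npc1, the lysosomal cholesterol transporter, had 1 line far from the others of its group by Dixon's test. Control line 45 was at 8.371 FPKM, and the other 3 control lines were at 8.99 to 9.081 FPKM (gap over range 0.872). Chance flags about 1 in 20 such sets.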

How the results depend on the processing

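The ICSI comparison called none of the members or related genes under any of 15 alternatives, and the interaction called none under 6. The member count between the label forms, 10, was 8 to 10 under the other settings and 5 to 11 when single lines were left out, with the lowest count without control line 37 or ICSI line 11. The related genes, 7 called, gave 5 to 10 under other settings and 0 to 11 when single lines were left out. Without control line 44 there were 4, without ICSI line 17 there were 3, and without ICSI line 21 there were 11. The share of all genes called moved in the same way, from 16% to 1.75% and 2.39% at the counts of 0 and to 22.4% at the count of 11. The cause was not tested. All called members kept their direction under all alternatives. The ICSI difference of Msmo1 (0.20) turned to -0.017 without control line 37 and to -0.022 without ICSI line 21, in a range of -0.022 to 0.490 over single lines left out. That of Dhcr7 (0.32) ranged from 0.149 to 0.481. That of Idi1 (0.14) turned to -0.032 without control line 29, in a range of -0.032 to 0.360, and to -0.011 within label form 2. No paired analysis was possible because the groups share no replicate numbers. The tested members had at least 177 reads in every line, and Tm7sf2 and Ebp had 19 to 98.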
